A study of Mus musculus with 6 samples.

Results

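The 8 genes described here are Hmgcs1, Sqle, Idi1, Fdft1, Lss, Cyp51, Insig1 and Srebf2, chosen by symbol from the 57180 genes of the deposited table. All 8 were found once, and all 8 had enough counts to be among the 14761 genes tested. They were compared between CD36+ NK and CD36- NK cells of fibrotic mouse liver, with 3 libraries in each group. NK cells were gated as CD3- NK1.1+ and sorted by CD36. All groups came from C57BL/6J male mice, 6 to 8 weeks old, in which fibrosis had been induced by intraperitoneal CCl4 in olive oil (2.5 ml/kg at 20%, 2 injections a week over 4 weeks), with livers taken 48 h after the final dose. No library of oil-treated mice was analysed here, so the values compare sorted fractions within fibrosis. The labels call the samples biological triplicates and do not say whether animals were pooled, so p-values measure the spread between these samples.

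Cholesterol is built from acetyl-CoA through the mevalonate pathway, and the resulting isoprenoids are joined to squalene and closed to the sterol ring. The genes of these enzymes are switched on together by the transcription factor SREBP2, which Srebf2 encodes. When membrane sterol is plentiful, the INSIG proteins hold SREBP2 and its escort SCAP in the endoplasmic reticulum. When sterol falls, the pair travels to the Golgi, where 2 proteases release the part of SREBP2 that enters the nucleus. The mRNA of its targets is therefore often read as a gauge of sterol demand. SREBP2 also raises Insig1, which closes a feedback loop, and its own gene.

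The promoter windows of the regulator and of the genes it is known to act on are shown because sterol regulatory elements are known to lie in such promoters. RefSeq windows of GRCm38.p6, from 250 bases before to 50 bases after the start of transcription, were found for 6 of the 8 genes. Sqle and Fdft1 were not matched. Letters searched on both strands were TCACNCCA, the core of the sterol regulatory element, CACGTG, an E-box that SREBPs can also bind, CCAAT, the site of the co-regulator NF-Y, and GGGCGG, the GC box of SP1. Capitals mark matches to the core, the E-box and the CCAAT box, and no marked matches overlap. Shown are Srebf2 (chr15:82147019-82147318, plus strand), Hmgcs1 (chr13:119690101-119690400, plus strand), Insig1 (chr5:28071162-28071461, plus strand) and Cyp51 (chr5:4104648-4104947, minus strand), each 5′ to 3′.
Srebf2: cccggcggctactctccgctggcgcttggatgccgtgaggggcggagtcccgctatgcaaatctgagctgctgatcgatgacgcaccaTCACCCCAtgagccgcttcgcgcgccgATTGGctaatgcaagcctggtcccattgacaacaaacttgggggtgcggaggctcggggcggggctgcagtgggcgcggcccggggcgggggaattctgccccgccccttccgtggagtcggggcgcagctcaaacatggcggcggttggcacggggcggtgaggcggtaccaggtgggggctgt
Hmgcs1: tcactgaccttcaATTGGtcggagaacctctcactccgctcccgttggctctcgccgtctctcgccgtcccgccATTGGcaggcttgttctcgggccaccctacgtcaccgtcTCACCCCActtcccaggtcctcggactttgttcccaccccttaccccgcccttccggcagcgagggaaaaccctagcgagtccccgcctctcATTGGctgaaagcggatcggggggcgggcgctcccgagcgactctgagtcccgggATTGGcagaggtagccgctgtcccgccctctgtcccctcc
Insig1: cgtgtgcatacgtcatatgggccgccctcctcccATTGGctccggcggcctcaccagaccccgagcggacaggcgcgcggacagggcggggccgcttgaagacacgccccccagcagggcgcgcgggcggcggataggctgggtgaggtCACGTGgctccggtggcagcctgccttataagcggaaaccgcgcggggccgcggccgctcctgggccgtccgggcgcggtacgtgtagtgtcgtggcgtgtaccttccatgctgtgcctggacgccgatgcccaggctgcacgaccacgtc
Cyp51: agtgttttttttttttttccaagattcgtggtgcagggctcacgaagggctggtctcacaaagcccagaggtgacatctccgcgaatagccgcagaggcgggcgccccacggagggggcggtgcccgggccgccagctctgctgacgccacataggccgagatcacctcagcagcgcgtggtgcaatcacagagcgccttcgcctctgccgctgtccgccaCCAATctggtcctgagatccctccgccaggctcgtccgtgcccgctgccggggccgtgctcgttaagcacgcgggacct

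The core was present in Srebf2, where it began 162 bases before the start, and in Hmgcs1, 137 bases before it, against 4.36% of all 32851 windows. Of the 24 other genes of the pathway with a window, Msmo1 held it. The E-box stood in Insig1, 101 bases before the start, in 7 of the 24 other pathway genes and in 7.15% of all windows. CCAAT was found in all 6 genes, 4 times in Hmgcs1, in 17 of the 24 others and in 37.4% of all windows. GGGCGG was also found in all 6 and in 20 of the 24 others, against 35.7% of all windows. The 6 genes have 1 window each, but some of the 24 others have up to 3 and were counted with a match in any of them, so the counts over the 24 cannot be read against the percentages per window. A missing match says only that these letters are not in these windows.

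The libraries held 10292480 to 13787189 counts. Cd36 had a log2 fold change of 3.27 between the fractions, in the direction of the titles, whereas the library names use the sign differently. Marker genes of several cell types moved with the groups. Of 10 NK lineage genes, 10 fell, with summed CPM (counts relative to the TMM-scaled library size) of 913 to 1102 for the CD36+ NK libraries against 4885 to 6235 for the CD36- NK libraries. Klrb1c, which encodes NK1.1, had FPKM values of 15.3 to 21.4 in the first group and 94.8 to 107 in the second. B cell genes summed to 4615 to 5142 CPM against 3035 to 3479. All 8 were higher, 7 of them without overlap and 5 past the test (adjusted p below 0.05 by edgeR). Of all tested genes, 32.8% did not overlap and 10.5% were past the test. Macrophage and Kupffer genes summed to 6554 to 9070 CPM against 2417 to 5696, with 3 of 9 tested genes past the test, all higher, and 7 of 9 called by DESeq2. Lyz2 was the largest single gene of that sum, from 2052 to 4747 CPM, and its groups overlapped (log2 fold change 0.09). The other 8, set apart after the values had been seen, summed to 2249 to 5583 CPM against 364 to 1366, with log2 fold changes from 1.89 to 3.50, and none of the 8 overlapped. Libraries also stood apart singly. T cell genes summed to 296 CPM in CD36+ NK replicate 1 and to 27.2 to 46.6 in the other libraries, and neutrophil genes to 2454 and 2066 CPM in replicate 1 of both groups against 351 to 1136 elsewhere. The Kupffer gene Clec4f had 624 counts in CD36+ NK replicate 2 and at most 17 in any other library. The part of these cells in the values below was not tested, and in bulk RNA fewer cells of a type and less RNA per cell cannot be told apart.

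None of the 8 sterol synthesis genes passed the test between CD36+ NK and CD36- NK cells. With edgeR's quasi-likelihood test and Benjamini-Hochberg adjustment over all tested genes, 0 of 8 had an adjusted p below 0.05, where 10.5% of all tested genes did (5.07% higher and 5.44% lower in CD36+ NK). At an unadjusted p below 0.05 there were 2 (Srebf2 and Cyp51, 25% of the 8), against 26.3% of all tested genes. DESeq2 called 1, Srebf2, against 15.7% of all tested genes. A further rule, a fold change above 2 as well, is met by 5.96% of all tested genes and by 0 of the 8. The 8 log2 fold changes ran from -0.24 to 0.55, with a median of 0.28 against 0.01 over all tested genes. Of the 8, 6 were above 0 and 2 below, and 1 of the 6, Lss, was at 0.0063. Over all tested genes, 7658 were above 0 and 7103 below. Their median size without sign was 0.28, against 0.23 over all tested genes.

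The 95% interval of the difference lay within a 2-fold change in either direction for 7 of the 8 genes, Idi1 being the exception, as for 67.9% of all tested genes. It lay within a 1.5-fold change for 3 of the 8, against 42.5% of all tested genes. The counts behind the values ran from 73 (Idi1 in CD36- NK replicate 1) to 4320 (Srebf2 in CD36+ NK replicate 2). The median standard error of the 8 log2 fold changes was 0.17, the same as over all tested genes.

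**Figure D1:**
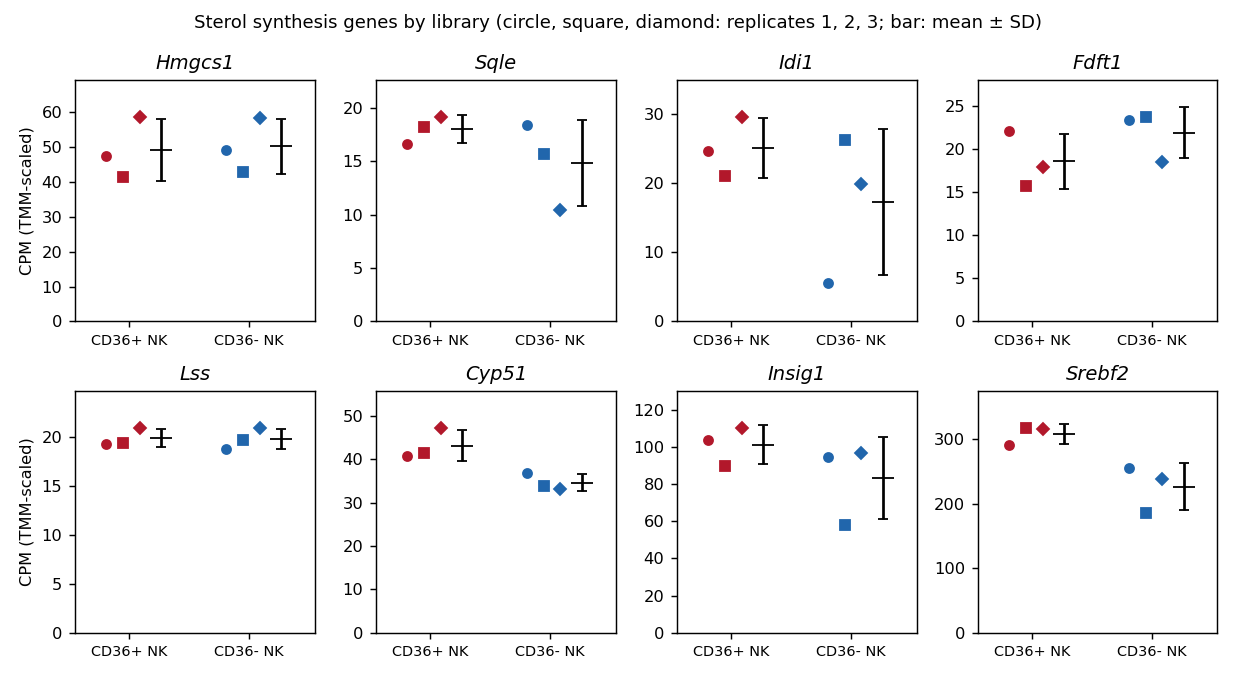
CPM of each of the 8 genes (vertical axis from 0, TMM-scaled) in the 3 CD36+ NK (red) and 3 CD36- NK (blue) libraries, with marker shapes for replicates 1 to 3 and a black bar for mean ± SD. The groups are apart in Cyp51 and Srebf2 and overlap in the other 6, and Idi1 has 1 low library, CD36- NK replicate 1, at 5.61 CPM.

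Srebf2 (ENSMUSG00000022463, chromosome 15, from 82031382 to 82089580, plus strand), the gene of the regulator, was the nearest to the threshold. Its level was 291, 318 and 316 CPM in CD36+ NK replicates 1 to 3 and 256, 187 and 238 CPM in CD36- NK. All 3 CD36+ NK libraries lay above all 3 CD36- NK libraries, and CD36- NK replicate 2 was the lowest. The means were 308 ± 14.9 CPM (SD, n = 3) and 227 ± 35.9 CPM (SD, n = 3). Between the groups the log2 fold change was 0.44 (standard error, SE, 0.13, adjusted p = 0.0761 by edgeR), a ratio of 1.36 with a 95% interval of 1.10 to 1.68. With DESeq2 the adjusted p was 0.0274, and without CD36- NK replicate 2 the log2 fold change was 0.32 (by edgeR, adjusted p = 0.109).

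Insig1 (ENSMUSG00000045294, chromosome 5, from 28276361 to 28283660, plus strand) encodes the sterol-sensing anchor of SCAP and is itself a target of SREBP2. It was at 104, 89.7 and 110 CPM in CD36+ NK and at 94.9, 58.0 and 96.9 CPM in CD36- NK. The groups overlapped, and CD36- NK replicate 2 was again the low library. It had a log2 fold change of 0.28 (SE 0.20, adjusted p = 0.435 by edgeR), with an interval of 0.877-fold to 1.68-fold. Without CD36- NK replicate 2 it was 0.077.

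Hmgcs1 (ENSMUSG00000093930, chromosome 13, from 120151915 to 120169796, plus strand) encodes the cytosolic synthase that makes HMG-CoA early in the mevalonate pathway. It was at 47.5, 41.4 and 58.8 CPM in CD36+ NK and at 49.3, 43.0 and 58.5 CPM in CD36- NK, or 49.2 ± 8.80 and 50.2 ± 7.81 (SD, n = 3). The ranges of both groups nearly coincided. Its log2 fold change was -0.03 (SE 0.17, adjusted p = 0.939 by edgeR), with an interval of 0.747-fold to 1.29-fold. Its sign turned without CD36+ NK replicate 2 or without CD36- NK replicate 3.

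Idi1 (ENSMUSG00000058258, chromosome 13, from 8935537 to 8942487, plus strand) encodes the isomerase that turns isopentenyl diphosphate into its allylic partner. It was at 24.7, 21.0 and 29.7 CPM in CD36+ NK and at 5.61, 26.3 and 19.9 CPM in CD36- NK. The low library, CD36- NK replicate 1, had 73 counts where the other 5 had 204 to 357. The highest library was 5.29 times the lowest, a wider ratio than in 91.1% of all tested genes. For Idi1 the log2 fold change was 0.55 (SE 0.48, adjusted p = 0.538 by edgeR), with an interval of 0.668-fold to 3.20-fold. Without CD36- NK replicate 1 it was 0.11, and without CD36- NK replicate 2 it was 0.99. Between the replicate 1 libraries the difference was 2.11 on the log2 CPM scale, and between the means of replicates 2 and 3 it was 0.13. Its close relative Idi2 was listed at 0 counts in all 6 libraries, which allows up to 3 counts in each.

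Fdft1 (ENSMUSG00000021273, chromosome 14, from 63382599 to 63417027, minus strand) encodes squalene synthase, the step that commits isoprenoids to sterols. It was at 22.1, 15.7 and 18.0 CPM in CD36+ NK and at 23.4, 23.8 and 18.6 CPM in CD36- NK, and the groups overlapped. Its log2 fold change of -0.24 (SE 0.17, adjusted p = 0.434 by edgeR) was the lowest of the 8, with an interval of 0.641-fold to 1.12-fold. Without CD36+ NK replicate 1 it was -0.39, and without CD36+ NK replicate 2 it was -0.13.

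Sqle (ENSMUSG00000022351, chromosome 15, from 59186926 to 59203041, plus strand) encodes squalene epoxidase, which oxidises squalene before ring closure. It was at 16.6, 18.2 and 19.2 CPM in CD36+ NK and at 18.4, 15.7 and 10.5 CPM in CD36- NK. CD36- NK replicate 3, with 107 counts, was low, and the other 5 libraries overlapped. This gave a log2 fold change of 0.28 (SE 0.21, adjusted p = 0.469 by edgeR), with an interval of 0.859-fold to 1.71-fold. Without CD36- NK replicate 3 it was 0.072, and without CD36- NK replicate 1 it was 0.45.

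Lss (ENSMUSG00000033105, chromosome 10, from 76367422 to 76392972, plus strand) encodes lanosterol synthase, which closes the sterol ring. It was at 19.3, 19.4 and 21.0 CPM in CD36+ NK and at 18.8, 19.7 and 20.9 CPM in CD36- NK. No library stood apart, and the highest was 1.11 times the lowest, a ratio smaller than in all but 1.37% of tested genes. The log2 fold change was 0.0063 (SE 0.11, adjusted p = 0.982 by edgeR), with an interval of 0.837-fold to 1.21-fold, and its sign depended on the scaling.

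Cyp51 (ENSMUSG00000001467, chromosome 5, from 4131145 to 4154746, minus strand) encodes the demethylase that acts on lanosterol. It was at 40.9, 41.4 and 47.2 CPM in CD36+ NK and at 36.8, 34.0 and 33.1 CPM in CD36- NK, without overlap. The means were 43.2 ± 3.52 and 34.6 ± 1.95 CPM (SD, n = 3). On the log2 scale the difference was 0.32 (SE 0.10, adjusted p = 0.103 by edgeR), a ratio of 1.25 with an interval of 1.05-fold to 1.48-fold. The groups did not overlap in 2 of the 8 genes, Srebf2 and Cyp51, against 32.8% of all genes tested. Both had CD36+ NK above, which held for 17.0% of all genes tested, and 0 of 8 had CD36- NK above, against 15.7%.

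Within each form of library name, which sets replicate 1 of both groups apart from replicates 2 and 3, the difference in log2 CPM of Srebf2 was 0.19 in replicate 1 and 0.59 in replicates 2 and 3. That of Cyp51 was 0.15 and 0.40, and that of Insig1 0.13 and 0.41. Sqle had -0.14 and 0.54, opposite in sign. Each of these values rests on 2 or 4 libraries and was not tested.

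**Figure D2:**
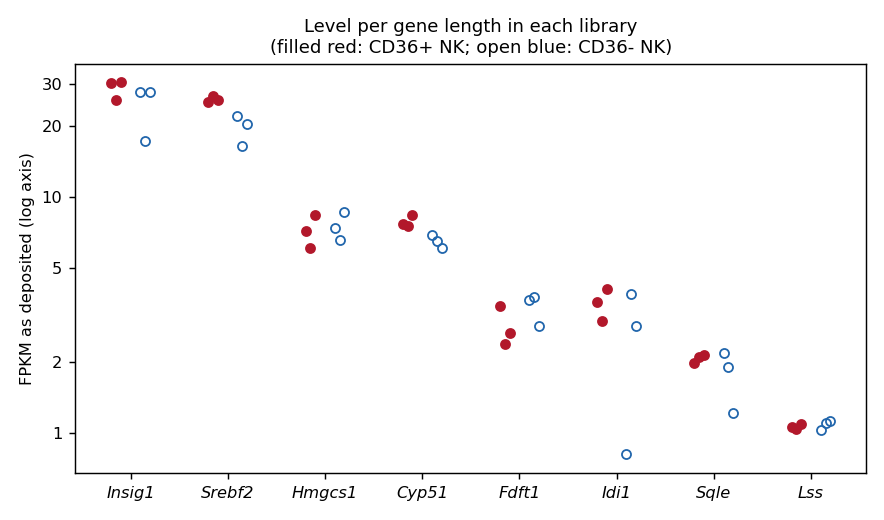
Deposited FPKM of each gene (log axis) in every library, CD36+ NK in filled red and CD36- NK in open blue, ordered by mean level. Insig1 and Srebf2 lie above 16 FPKM in all libraries and Lss lies near 1.

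Per gene length, in FPKM, the regulators were the most abundant of the 8. Insig1 had a mean of 26.6 FPKM over the 6 libraries (17.3 to 30.5) and Srebf2 one of 22.7 (16.4 to 26.8), and these ranges overlapped. They were followed by Hmgcs1 (7.35, from 6.05 to 8.63) and Cyp51 (7.16, from 6.09 to 8.35), which overlapped as well. Fdft1 (3.12, from 2.39 to 3.77) and Idi1 (3.02, from 0.811 to 4.06) came next and overlapped, and below them Sqle (1.92, from 1.22 to 2.17) overlapped with Idi1 but not with Fdft1. Lss was lowest, at 1.07 FPKM (1.03 to 1.13), at the 19.2th percentile of tested genes, where Insig1 was at the 88.3th. Idi1 in CD36- NK replicate 1 lay below Lss.

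The whole route from acetyl-CoA to cholesterol was compared through 23 enzyme genes, 6 of the 8 among them, of which 22 were tested. Of these 22, 15 were higher and 7 lower in CD36+ NK, where 7658 and 7103 of all tested genes were. Of the 22, 1 passed the test (4.55%, against 10.5% of all tested genes). Their median log2 fold change was 0.07. Among the 16 tested enzymes that are not part of the 8, the interval lay within a 2-fold change for 16 of 16, against 67.9% of all tested genes.

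Lbr was the enzyme gene past the test, lower in CD36+ NK. It encodes the lamin B receptor, a protein of the inner nuclear membrane that anchors chromatin and carries a sterol reductase domain, an activity it shares with Tm7sf2. Lbr was at 208, 190 and 168 CPM in CD36+ NK and at 270, 282 and 279 CPM in CD36- NK, without overlap. The log2 fold change was -0.56 (SE 0.10, adjusted p = 0.0194 by edgeR). The call was lost without CD36+ NK replicate 2 or 3 or without CD36- NK replicate 1 or 3, with adjusted p from 0.063 to 0.0793. Over all genes, 525 to 666 passed in those fits, against 1552 in the reported fit. With a library left out the log2 fold change of Lbr ran from -0.64 to -0.48. Tm7sf2 was at 5.38 to 7.50 CPM over the 6 libraries, with a log2 fold change of 0.08 (by edgeR, adjusted p = 0.834).

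**Figure D3:**
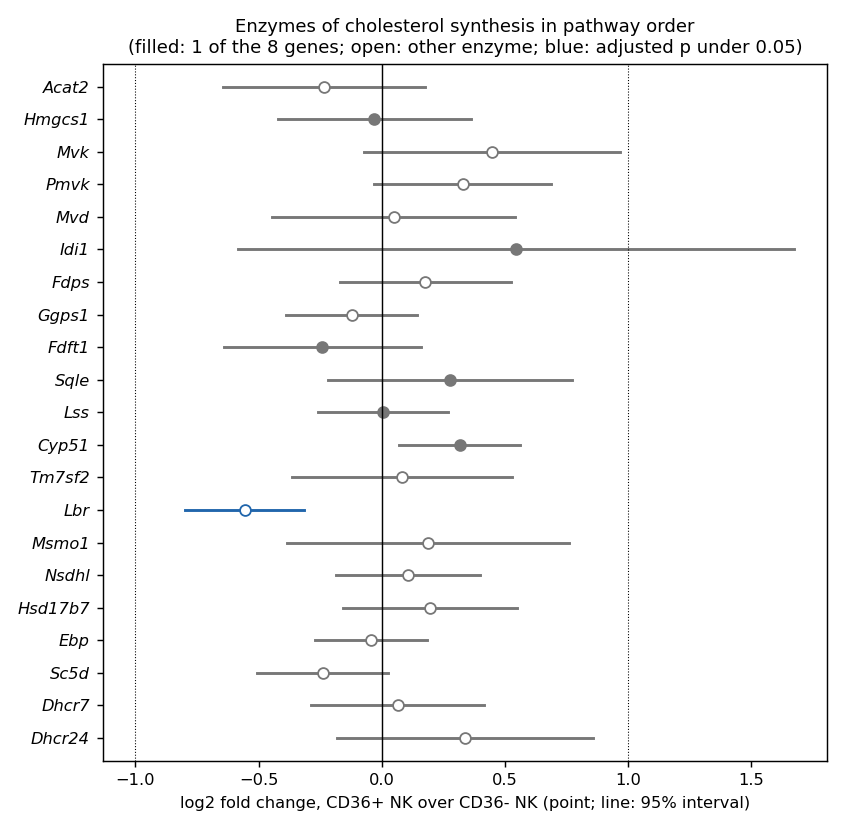
Log2 fold change of CD36+ NK over CD36- NK (horizontal axis; point, with a line for the 95% interval) for 21 of the 22 tested enzymes of cholesterol synthesis, listed from the start of the pathway downwards (filled points are among the 8, open points are other enzymes), with dotted lines at a 2-fold change. Lbr (blue) passed the test, at -0.56, and the interval of Idi1 reaches beyond the dotted line.

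Among the 14 genes of the SREBP machinery, which include Srebf2 and Insig1, 0 passed the edgeR test. An unadjusted p below 0.05 was found for 3 (21.4%, against 26.3% of all tested genes), and DESeq2 called 3 of 14, against 15.7%. Scap, the escort, had a log2 fold change of 0.11, Mbtps1 and Mbtps2, which encode the Golgi proteases, 0.03 each, and Insig2 0.04. Srebf1, the gene of SREBP1, had 0.03. Rnf145, the most expressed after Srebf2, encodes a ubiquitin ligase that acts in sterol-regulated protein degradation and had 0.13. Erlin1 and Erlin2, which encode prohibitin-like proteins of the endoplasmic reticulum that hold the SREBP complex back, were chosen after their values had been seen. Erlin2 was at 64.7, 85.0 and 107 CPM in CD36+ NK and at 45.6, 60.5 and 43.9 CPM in CD36- NK, without overlap. Its log2 fold change was 0.78 (SE 0.21, adjusted p = 0.0577 by edgeR), and Erlin1 had 0.45 (SE 0.13, adjusted p = 0.0699 by edgeR). Without CD36- NK replicate 2 the adjusted p was 0.0374 for Erlin2 and 0.045 for Erlin1, and without CD36+ NK replicate 1 it was 0.0241 for Erlin2. Erlin2 also passed with DESeq2 (adjusted p = 0.00683), with the form of the library name as a term (0.0416), with pairs by that form and number (0.0166) and with upper-quartile scaling (0.0491), and Erlin1 passed with DESeq2 (0.0438). Without any one of CD36+ NK replicates 2 and 3 and CD36- NK replicates 1 and 3, the adjusted p by edgeR was 0.143 to 0.173 for Erlin2 and 0.183 to 0.209 for Erlin1. Over all genes, 525 to 666 passed in those fits, against 1552 in the reported fit. The number was 1750 without CD36- NK replicate 2 and 1743 without CD36+ NK replicate 1.

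Of 3 tested genes of sterol uptake, 1 passed the test, Mylip, which was lower in CD36+ NK. It encodes the ubiquitin ligase IDOL, which limits lipoprotein uptake and is induced by the sterol sensor LXR. Mylip was at 107, 125 and 104 CPM in CD36+ NK and at 155, 171 and 174 CPM in CD36- NK, without overlap. The log2 fold change was -0.57 (SE 0.10, adjusted p = 0.0182 by edgeR). Without CD36+ NK replicate 3 the adjusted p was 0.0793, and without CD36- NK replicate 3 it was 0.0581. Stard4, which encodes a sterol carrier, had a log2 fold change of -0.10.

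Of 10 tested fatty acid genes, which SREBP1 is known to act on, 4 passed the test (1 higher and 3 lower), against 10.5% of all tested genes. Whether this share differs from that of the 8 was not tested. Acss2, which encodes an acetyl-CoA synthetase, was at 34.2, 27.8 and 28.8 CPM in CD36+ NK and at 60.4, 71.6 and 81.2 CPM in CD36- NK, which gave a log2 ratio of -1.23 (SE 0.14, adjusted p = 0.00406 by edgeR). Elovl6, an elongase gene, fell by 1.33 on the log2 scale, and Fasn, the fatty acid synthase gene, by 0.48. Scd1, the gene of a stearoyl-CoA desaturase, rose by 0.45. Acss2 and Elovl6 passed in every fit that left out a library. Fasn and Scd1 did not: both lost the call without CD36+ NK replicate 2 or 3 or CD36- NK replicate 1 or 3, and Scd1 also without CD36- NK replicate 2, with adjusted p from 0.0562 to 0.123. Over all genes, 525 to 666 passed in the fits where both lost the call, and 1750 without CD36- NK replicate 2.

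Among 9 tested genes of cholesterol efflux, storage and release, 2 passed the test (22.2%, against 10.5% of all tested genes). Soat2 was lower and Lipa higher in CD36+ NK. Soat2, which encodes the acyltransferase of liver and gut, was at 10.4, 9.86 and 8.56 CPM in CD36+ NK and at 33.7, 27.9 and 40.3 CPM in CD36- NK, with a log2 ratio of -1.82 (SE 0.17, adjusted p = 0.00181 by edgeR). Lipa was at 137, 170 and 238 CPM in CD36+ NK and at 70.3, 94.3 and 53.9 CPM in CD36- NK, with a log2 ratio of 1.32 (SE 0.26, adjusted p = 0.024 by edgeR). Neither gene overlapped between the groups. Abca1 and Abcg1, which encode the sterol exporters driven by LXR, had log2 fold changes of 0.23 and 0.39 (by edgeR, adjusted p = 0.18 and 0.214). Soat1, which encodes the acyltransferase that stores cholesterol as ester in most cells and was singled out after its values had been seen, was at 88.5, 120 and 109 CPM in CD36+ NK and at 71.4, 94.8 and 64.5 CPM in CD36- NK, which gave a log2 ratio of 0.46 (by edgeR, adjusted p = 0.144). Lipa, the lysosomal lipase gene, lost its call without CD36+ NK replicate 2 or 3 or CD36- NK replicate 1 or 3, with adjusted p from 0.0699 to 0.0919. Without CD36- NK replicate 2, 5 of the 9 genes passed (Soat2, Lipa, Soat1, Cyp27a1 and Nr1h3), and without CD36+ NK replicate 1, 3 did. Over all genes, 1750 and 1743 passed in these fits, and 525 to 666 in those where Lipa lost its call.

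**Figure D4:**
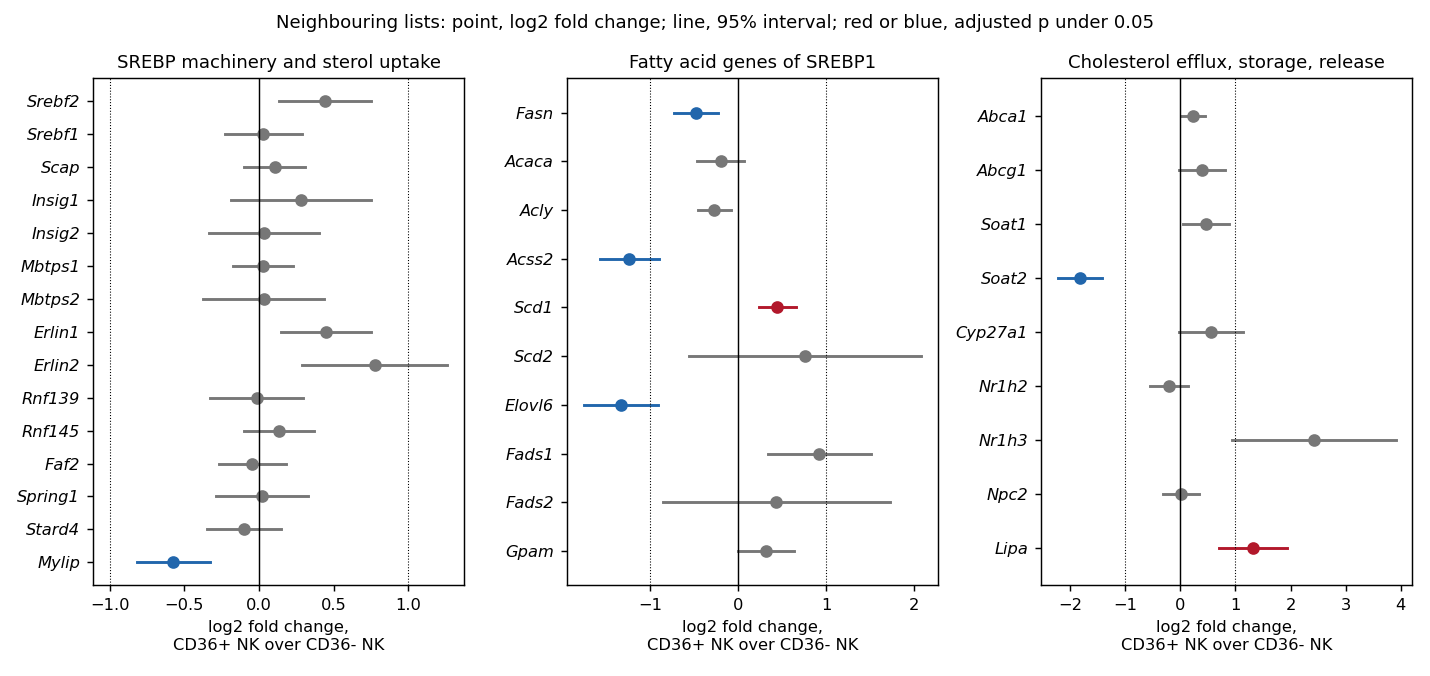
Log2 fold change of CD36+ NK over CD36- NK (horizontal axes, each with its own range; point, with a line for the 95% interval) for the genes drawn of the SREBP machinery and sterol uptake, fatty acid genes and genes of cholesterol efflux, storage and release. Red and blue mark adjusted p below 0.05: Mylip, Fasn, Acss2, Elovl6 and Soat2 were lower and Scd1 and Lipa higher.

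Proliferating cells make sterol for new membrane, so genes of the cell cycle were set beside the 8. None of 12 passed the edgeR test, 1 had an unadjusted p below 0.05 (Tk1, the thymidine kinase gene, with a log2 fold change of 0.36 and an adjusted p = 0.06) and DESeq2 called 0. Their median log2 fold change was 0.10. The 3 most expressed of them were Pcna, Mki67 and Mcm5, with log2 fold changes of -0.24, 0.18 and 0.01, and all 3 overlapped between the groups.

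**Figure D5:**
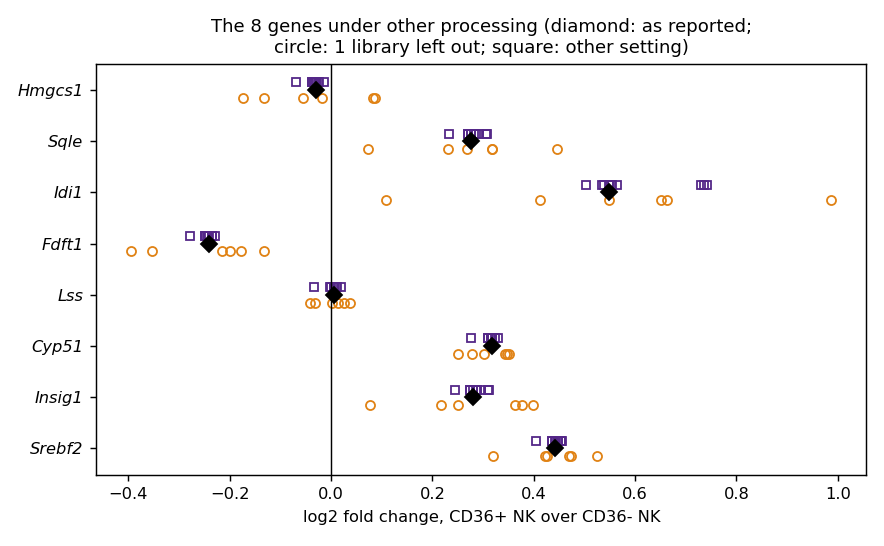
Log2 fold change of each of the 8 genes (horizontal axis) as reported (black diamond), with 1 library left out (circle) and under other scalings, filters, blocks or tests (square). Sqle, Idi1 and Insig1 come within 0.11 of 0 when a single CD36- NK library is left out, while Cyp51 stays between 0.25 and 0.35 and Srebf2 between 0.32 and 0.53.

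The genes most like the mean profile of the 8 over the 6 libraries were Tbp, Scrn3, Fam222b, Pphln1 and Gm13680, by the root mean square difference of centred log2 CPM, which was 0.030 to 0.047. They were drawn from 10001 genes with a mean of at least 10 CPM. Tbp, the gene of the TATA-binding protein and a common reference gene, ranged over 30.5 to 34.8 CPM in CD36+ NK against 26.5 to 28.5 CPM for the other group. Those most like Srebf2 alone were Sdc4, Mrpl11, Hps4, Strbp and Pmm1, with differences of 0.073 to 0.095.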

How the data were processed

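RNA was sequenced from 3 CD36+ NK and 3 CD36- NK samples, each from 400 ng of total RNA. The authors filtered reads with Seqtk and mapped them with HISAT2 2.0.4. The authors then used StringTie to count fragments and deposited raw counts beside FPKM values. The deposited FPKM were the counts over one length per gene and the library total, to within 0.1%, in 100% of the 7439 genes with over 200 counts in every library. They served for levels between genes and for the levels of Klrb1c. The processing notes name the rat build mRatBN7.2, but the identifiers are of mouse. The coordinates are those of the table, which names no build, and 0 of the 8 starts lay within 1000 bases of GRCm38.p6. The lines of 2 genes were rejoined.

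Samples were grouped by title, and columns were matched to samples by library name, although those names use the CD36 sign otherwise. Counts were tested with edgeR 4.0.16 in R 4.3.3: filterByExpr with a minimum count of 10 (14761 genes), TMM, and the quasi-likelihood test (no block). The SE of a fold change is its log2 size divided by the root of F, and 95% intervals use the test's degrees of freedom. The common biological coefficient of variation was 20.3%. CPM are TMM-scaled, and log2 CPM used a pseudocount of 2. Libraries held 10292480 to 13787189 counts, and intervals and floors of 3 counts cover no other error. Replicates differed by more than sampling noise (chi-square per degree of freedom 14.8 to 29.2). The script was tested on simulated data. Plots used matplotlib 3.10.9.

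The 8 genes and all lists were chosen with earlier results of these data known. Named are the 8, the genes of the pathway and lipid lists past the test or else the 3 most expressed, Cd36, Klrb1c and the most alike genes. Others were chosen after their values were seen, as the motifs were after the promoters were seen. Alternatives were DESeq2 1.42.0, other scalings and filters, a robust fit, blocks, another list, and each library left out. Calls in the remaining marker lists were monocytes (2 higher and 1 lower past the test, of 8), dendritic cells (2 higher and 1 lower, of 8), erythroid (4 of 6 higher), sinusoidal endothelium (1 of 3 higher), stellate cells (1 of 2 higher), T cells (2 of 7 higher), neutrophils (0 of 6 by edgeR, 0 by DESeq2 and 0 at an unadjusted p below 0.05) and hepatocytes (none of 6 genes tested, Alb at most at 106 counts). Some genes of the lists are not reported here by name, and they were left out of the plots but not of the counts.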

Additional observations from a re-analysis of the deposited data

How the results depend on the processing

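Over the 8 genes and 16 alternatives, 120 of 128 values kept their direction and their side of the threshold, 7 turned direction and 1 passed it. The turned values were those of Hmgcs1 and Lss, which were near 0: Lss was -0.00103 with DESeq2 size factors in edgeR, -8.16e-05 with DESeq2 and -0.0336 with total counts, and ran from -0.041 to 0.038 with a library left out, as Hmgcs1 ran from -0.17 to 0.086. The cause was not tested. DESeq2 called 1 of the 8 (Srebf2). With a library left out, 0 of the 8 passed in each fit. Without CD36+ NK replicate 2 or 3 or CD36- NK replicate 1 or 3, only 525 to 666 of all genes passed, against 1552. A gene short of the threshold was thus less able to pass in those fits.

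The number of enzyme genes past the test was 0 to 1 with a library left out and 3 of 39 with KEGG's steroid and terpenoid backbone terms, which add Lipa and Soat2. For the SREBP machinery with sterol uptake, 1 in the reported fit, it was 2 with the form of the library name as a term, with pairs by that form and number, and with upper-quartile scaling, 5 with DESeq2, and 0 to 4 with a library left out. For fatty acid genes, 4 in the reported fit, it was 2 to 4 with a library left out, 5 with pairs by name form and number (adding Fads1) and 6 with DESeq2 (adding Fads1 and Acly). For efflux genes, 2 in the reported fit, it was 1 to 5 with a library left out and 3 (adding Nr1h3) with the name form as a term, with those pairs and with DESeq2.

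The reported fit has no block because the methods of the authors name none. The replicate numbers come from the titles, and same-numbered libraries had deviations correlated at 0.31, 0.0515 and -0.0837 across genes for replicates 1, 2 and 3. This correlation was not computed for pairs by library name form and number. The replicate block gave 907 genes past the test where the reported fit gave 1552, called 2 fatty acid genes (Acss2 and Elovl6) in place of 4 and 1 efflux gene (Soat2) in place of 2, and called 0 of the 8. Under it Fasn, Scd1 and Lipa had adjusted p of 0.0512, 0.0615 and 0.0664, and without a filter on low counts Fasn had 0.0541. Pairs by name form and number as a block gave 1988 genes past the test, and the name form as a term gave 1720. The number over all genes was 525 without CD36+ NK replicate 2 and 607 without CD36+ NK replicate 3. It was 611 without CD36- NK replicate 1 and 666 without CD36- NK replicate 3. It was 1743 without CD36+ NK replicate 1, 1750 without CD36- NK replicate 2 and 2320 with DESeq2. Calls lost or gained with a library left out are to be read beside these numbers.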

Other observations

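Genes beside sterol synthesis held wider differences. Nr1h3, which encodes the sterol sensor LXR alpha and marks tissue macrophages, was at 29.0, 51.2 and 88.1 CPM in CD36+ NK and at 5.38, 20.8 and 5.27 CPM in CD36- NK, without overlap. Its log2 fold change was 2.42 (SE 0.63, adjusted p = 0.0538 by edgeR). It passed with DESeq2 (adjusted p = 0.0161), with the form of the library name as a term (0.0346), with pairs by that form and number (0.00695), without CD36+ NK replicate 1 (0.0381) and without CD36- NK replicate 2 (0.0118). Without any other single library the adjusted p by edgeR was 0.123 to 0.161. Over all genes, 525 to 666 passed in the latter fits. The number was 1743 without CD36+ NK replicate 1 and 1750 without CD36- NK replicate 2. Nr1h2, the gene of the broadly expressed LXR beta, ranged over 73.8 to 104 CPM and 88.6 to 105 CPM in the same order of groups, which overlapped, with a log2 ratio of -0.20 (by edgeR, adjusted p = 0.442). In the same libraries the macrophage gene C1qa was at 245, 348 and 715 CPM in CD36+ NK and at 22.8, 128 and 23.4 CPM in CD36- NK, with CD36- NK replicate 2 high as for Nr1h3. The part of macrophage RNA in the level of Nr1h3 was not tested.

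Desaturase genes also varied within groups. Scd2 was at 194, 210 and 60.1 CPM in CD36+ NK and at 71.3, 46.9 and 156 CPM in CD36- NK, so that replicate 3 stood opposite to the other libraries in both groups. Its log2 fold change was 0.76 (SE 0.56, adjusted p = 0.453 by edgeR). Fads1, which encodes a desaturase of polyunsaturated fatty acids, was at 15.9, 16.0 and 23.8 CPM in CD36+ NK and at 8.23, 12.9 and 8.30 CPM in CD36- NK, without overlap, with a log2 fold change of 0.92 (SE 0.25, adjusted p = 0.0599 by edgeR). These genes were chosen after their values had been seen.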
